A study of Mus musculus with 2 samples.

Results

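The type I interferon stimulated genes described here are 39 genes, chosen by symbol and found in the deposited TPM table through their GENCODE M21 identifiers, of 55536 genes in all. TPM is transcript abundance per gene length, scaled to 1000000 per library. The study compared mammary tumors of MMTV-PyVT mice given cyanidin-3-glucoside (C3G), a berry anthocyanin, with tumors of MMTV-PyVT mice given dimethyl sulfoxide (DMSO). Dosing started at the stage of ductal hyperplasia, and tumors were collected at a set tumor burden. Both groups carry the same transgene, polyoma middle T antigen under the mouse mammary tumor virus promoter, which acts mainly in mammary epithelium, so that both libraries hold tumor cells together with the host's stroma and immune cells. Strain, age, dose and the number of mice behind a library are not given in the sources used here. Each group has 1 library, 16081110 reads for C3G and 12192275 reads for DMSO, recovered from the TPM values and gene lengths. There is thus no replicate check, no gene was tested, and a difference between the treatments cannot be told apart from a difference between individual tumors.

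Type I interferons bind a shared cell surface receptor whose kinases phosphorylate transcription factors of the STAT family. STAT2 and IRF9 are parts of the complex ISGF3, which binds a DNA element called ISRE and switches on a large set of genes, many of which block steps of viral replication. Some of the products, among them STAT2, IRF9 and IRF7, feed back to strengthen the response, and USP18 dampens it. In tumors the program is known from both cancer cells and infiltrating immune cells.

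All 39 genes were detected in both tumors, and 33 of them had a lower level in the C3G tumor, which is 84.6% of the genes against 41.1% of all 17468 genes with a mean of at least 1 TPM. The median log2 ratio, log2((C3G TPM + 1)/(DMSO TPM + 1)), was -0.34 for the 39 genes and 0.10 for all 17468. A gene counts here as lower by size if it reached 5 TPM in either tumor and had a log2 ratio no higher than -1. This held for 3 of the 38 genes that reached 5 TPM, Oas3, Ifit3 and Oasl2, or 7.89% against 4.30% of all 12780 such genes, and none was higher by size, against 3.10% of all genes. At a difference of 1.5-fold on the same scale, 9 of the 38 genes were lower, or 23.7%, against 9.15% of all genes. With the log2 ratios centred on genes with a mean of at least 10 TPM, which shifted every log2 ratio by -0.12, 36 of the 39 genes lay below 0, against 51.5% of all genes. The larger part of the program therefore stood moderately lower, and 25 of the 39 genes lay below -0.22, the 25th percentile of all genes, while 4 lay above the median of all genes. Summed over the 39 genes, the level was 4798 TPM in the C3G tumor and 6442 TPM in the DMSO tumor. As a share of reads this was 0.392% in the C3G library (Wilson 95% interval 0.389 to 0.395) and 0.536% in the DMSO library (0.532 to 0.540). Intervals here cover counting error only, and in whole tumors fewer cells of a type and less RNA per cell cannot be told apart.

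**Figure D1:**
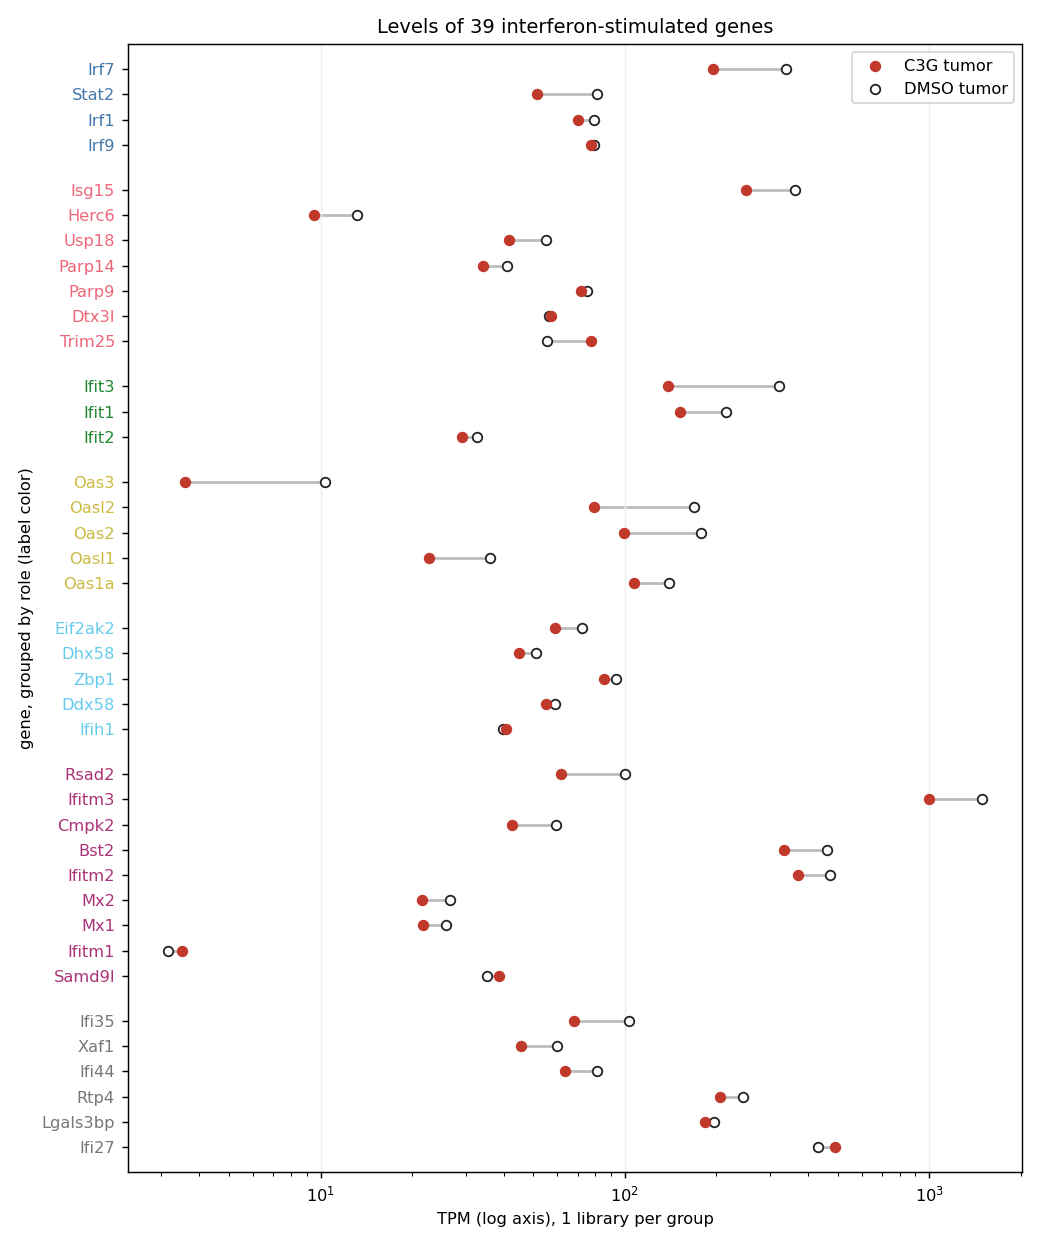
TPM of each of the 39 interferon-stimulated genes on a log axis, filled points for the C3G tumor and open points for the DMSO tumor, 1 library each, with gene labels colored by role. Filled points lie left of open points for 33 genes, and the gap is widest for Oas3, at 3.58 TPM with C3G and 10.3 TPM with DMSO.

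The transcription factors that drive the program differed in how far they stood apart. Irf7, the regulator that sustains interferon production (141262706 to 141266481 on chromosome 7 of mm10), had 195 TPM in the C3G tumor and 338 TPM in the DMSO tumor. Its ratio of C3G over DMSO was 0.576, with an exact 95% counting interval of 0.553 to 0.599. Stat2, the ISGF3 subunit that carries the activation domain, stood at 51.3 TPM with C3G and 80.7 TPM with DMSO, a ratio of 0.636 (0.596 to 0.679). Irf9, the DNA-binding subunit of ISGF3, was level between the tumors within counting error, at 77.1 TPM with C3G and 79.2 TPM with DMSO, a ratio of 0.973 (0.915 to 1.04). Its log2 ratio of -0.04 became -0.16 after centring. Irf1, a regulator induced more strongly by interferon gamma than by type I interferon, stood at 69.98 TPM with C3G and 79.3 TPM with DMSO, a ratio of 0.883 (0.820 to 0.950). Of the ISGF3 genes, then, Stat2 was clearly lower than its counting error allows for, while Irf9 was not unless the ratios were centred.

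The oligoadenylate synthetase family had the lowest values of any role. Active enzymes of the family sense double-stranded RNA and make a messenger that activates the nuclease RNase L, which is not the role given below for Oasl1. The 5 genes measured here lie on chromosome 5. All 5 stood lower in the C3G tumor, with a median log2 ratio of -0.83. Oas3, the largest of the enzymes (120753098 to 120777661), had 139 reads with C3G and 317 reads with DMSO, or 3.58 and 10.3 TPM, a ratio of 0.346 (0.281 to 0.424). Oasl2 (114896936 to 114912234) stood at 78.9 TPM with C3G and 169 TPM with DMSO, a ratio of 0.467 (0.446 to 0.490). These were the family's calls by size. Oas2 stood at 99.5 TPM with C3G and 178 TPM with DMSO, a ratio of 0.560 (0.532 to 0.590). Oasl1, which in mouse restrains translation of Irf7, stood at 22.7 TPM with C3G and 36.2 TPM with DMSO, a ratio of 0.627 (0.540 to 0.727). Oas1a was the least different, at 107 TPM with C3G and 139 TPM with DMSO, a ratio of 0.768 (0.706 to 0.834). Mouse holds a cluster of similar Oas1 genes that can share reads, and the sum of Oas1a, Oas1b, Oas1c and Oas1g was 203 TPM with C3G and 252 TPM with DMSO, so that the log2 ratio of the sum was -0.31.

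The IFIT proteins bind viral RNA that lacks the marks of host messages and block its translation. Their genes lie side by side on chromosome 19, and their ratios spread widely. Ifit3 (34583531 to 34588731) stood at 139 TPM in the C3G tumor and 322 TPM in the DMSO tumor, a ratio of 0.431 (0.403 to 0.461). Ifit1 stood at 151 TPM with C3G and 214 TPM with DMSO, a ratio of 0.707 (0.668 to 0.750), and Ifit2 at 29.1 TPM with C3G and 32.7 TPM with DMSO, a ratio of 0.890 (0.792 to 0.999). Ifit3 has a close copy beside it, Ifit3b, with 52.8 TPM in the C3G tumor and 79.8 TPM in the DMSO tumor, so how reads were divided within the pair is uncertain. Their sum was 191 TPM with C3G and 401 TPM with DMSO, a log2 ratio of -1.06, still past the size threshold.

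Isg15 encodes a ubiquitin-like protein that is secreted or attached to other proteins. It stood at 249 TPM in the C3G tumor and 363 TPM in the DMSO tumor, a ratio of 0.686 (0.630 to 0.746). Usp18, the protease that removes ISG15 and also holds back the receptor, had 41.6 TPM with C3G and 54.9 TPM with DMSO, a ratio of 0.757 (0.678 to 0.845). Herc6, the main ligase for ISG15 in mouse, had 9.48 TPM with C3G and 13.1 TPM with DMSO, a ratio of 0.722 (0.637 to 0.818). The counting intervals of these 3 genes all lay below 1. Of the 7 genes listed as conjugation factors, ligases and ADP-ribosyltransferases, 5 lay below 0, with a median log2 ratio of -0.26. Trim25, a ubiquitin ligase for the RNA sensor RIG-I, was the highest of the 39 by ratio, at 77.1 TPM with C3G and 55.7 TPM with DMSO, a ratio of 1.38 (1.30 to 1.48). Parp9 and Dtx3l, whose proteins form a complex of an ADP-ribosyltransferase family member and a ubiquitin ligase, overlap head to head on chromosome 16 and share a stretch that is 9.40% of the exon bases of Parp9, where a library that does not mark strand cannot separate them. Parp9 stood at 71.6 TPM with C3G and 75.3 TPM with DMSO, with a log2 ratio of -0.07. Dtx3l stood at 57.3 TPM with C3G and 56.2 TPM with DMSO, with a log2 ratio of 0.03, which became -0.09 after centring. Parp14, another family member nearby, had 34.1 TPM with C3G and 41.1 TPM with DMSO, a ratio of 0.829 (0.775 to 0.888).

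Genes for other sensors of viral nucleic acid and for the kinase PKR stood closer to level than the oligoadenylate synthetases. The counting interval still lay below 1 for 4 of these 5 genes. Ddx58, which encodes RIG-I, stood at 55.03 TPM in the C3G tumor and 58.9 TPM in the DMSO tumor, a ratio of 0.935 (0.878 to 0.996). Ifih1, which encodes the sensor MDA5, stood at 40.6 TPM with C3G and 39.7 TPM with DMSO, with a log2 ratio of 0.03 that became -0.09 after centring. Dhx58, which encodes their cofactor LGP2, had a ratio of 0.884 (0.799 to 0.979), and Zbp1, a sensor of Z-form nucleic acid that can trigger necroptosis, of 0.910 (0.847 to 0.977). The kinase PKR, encoded by Eif2ak2, halts translation on binding double-stranded RNA. Its gene stood at 58.8 TPM with C3G and 72.1 TPM with DMSO, a ratio of 0.816 (0.761 to 0.874). These 5 genes had a median log2 ratio of -0.13, against -0.83 for the oligoadenylate synthetases, a description of 2 sets of 5 genes with no test of the difference.

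Among genes whose products act on membranes or other steps of the viral life cycle, the most abundant was Ifitm3. It blocks fusion of viruses with endosomes and was the top gene of the 39 in both tumors, at 997 TPM with C3G and 1489 TPM with DMSO, a ratio of 0.670 (0.641 to 0.700). Its neighbour Ifitm2 stood at 369.8 TPM with C3G and 470.5 TPM with DMSO, a ratio of 0.786 (0.728 to 0.849), but 40.9% of its exon bases are shared with the overlapping gene model Gm45717. Ifitm1 was barely expressed, with 21 reads in the C3G library and 15 reads in the DMSO library, and no direction can be read from a ratio of 1.10 with an interval of 0.543 to 2.30, the more so as its log2 ratio of 0.11 became -0.01 after centring. Bst2 encodes tetherin, which holds budding virus on the cell, and stood at 334 TPM with C3G and 462 TPM with DMSO, a ratio of 0.723 (0.676 to 0.773). Isg15, Bst2, Ifitm2 and Ifitm3 are the 4 genes of the 39 with under 1000 exon bases. All genes of that length with a mean of at least 1 TPM had a median log2 ratio of -0.19, against 0.13 for longer genes. With the trend over gene length removed from all log2 ratios, Isg15 lay at -0.28 in place of -0.54, Bst2 at -0.24 in place of -0.47, Ifitm3 at -0.29 in place of -0.58 and Ifitm2 at -0.06 in place of -0.35. All 4 stayed below 0, but Ifitm2 by less than its counting error, so that its direction is uncertain.

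Rsad2, or viperin, makes a chain-terminating nucleotide, and the adjacent gene Cmpk2 supplies nucleotides to it. These neighbours on chromosome 12 are transcribed in opposite directions, away from each other. Rsad2 stood at 61.6 TPM in the C3G tumor and 99.8 TPM in the DMSO tumor, a ratio of 0.617 (0.576 to 0.661). Cmpk2 stood at 42.4 TPM with C3G and 59.2 TPM with DMSO, a ratio of 0.717 (0.656 to 0.782). Both were lower, Rsad2 somewhat more so, with intervals that barely touch. The dynamin-like GTPase genes Mx1 and Mx2 were alike, with ratios of 0.837 (0.732 to 0.958) and 0.806 (0.703 to 0.925). Many inbred mouse strains carry a defective Mx1. Samd9l, a restriction factor that limits protein synthesis, stood at 38.5 TPM with C3G and 35.2 TPM with DMSO, a ratio of 1.09 (0.999 to 1.20).

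The remaining 6 genes ran in both directions. Ifi35 stood at 68.2 TPM in the C3G tumor and 103 TPM in the DMSO tumor, a ratio of 0.660 (0.593 to 0.733), with 16.8% of its exon bases shared with another gene model. Xaf1, an antagonist of the apoptosis inhibitor XIAP, and Ifi44 had ratios of 0.761 (0.701 to 0.825) and 0.789 (0.743 to 0.838). Rtp4, a receptor transporter induced by interferon, had a ratio of 0.842 (0.795 to 0.892). Lgals3bp, a secreted glycoprotein that binds galectins, had a ratio of 0.933 (0.884 to 0.985). Ifi27 was on the other side, at 492 TPM with C3G and 432 TPM with DMSO, a ratio of 1.14 (1.08 to 1.20), and was the gene with the second highest level of the 39 in the C3G tumor. Its log2 ratio of 0.19 became 0.07 after centring and 0.36 with the length trend removed. Ifi27 and Trim25 were the 2 genes whose counting interval lay above 1, against 42.2% of all 12780 genes that reached 5 TPM. The interval lay below 1 for 31 of the 38 genes, or 81.6%, against 20.7% of all genes.

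**Figure D2:**
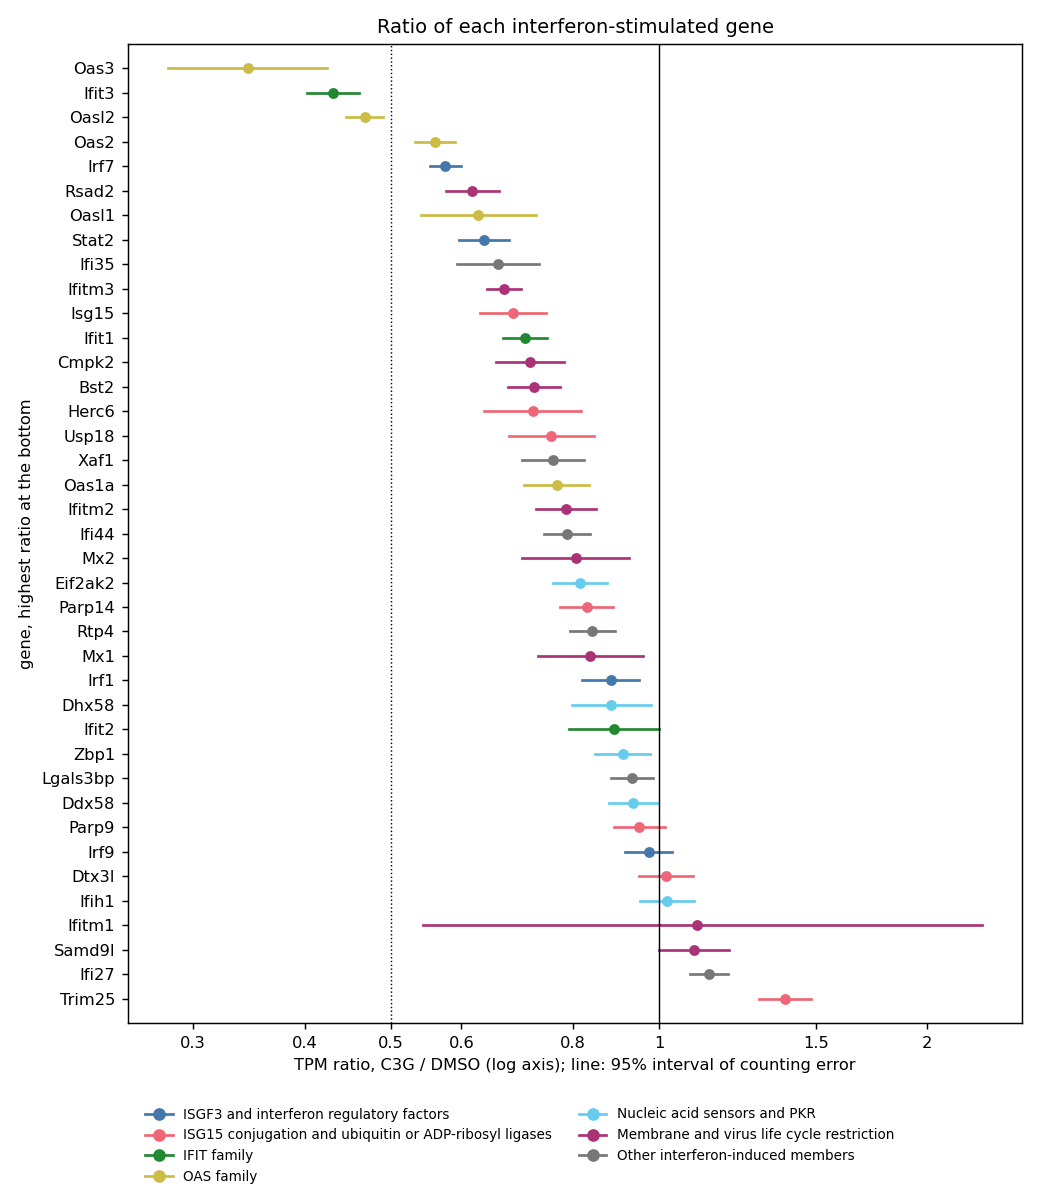
Ratio of TPM, C3G over DMSO, on a log axis for each of the 39 genes, with lines for the exact 95% interval of counting error and colors for roles, ordered with the lowest ratio at the top. The dotted line marks a ratio of 0.5, to the left of which lie Oas3, Ifit3 and Oasl2, and the genes of the sensors and PKR sit closer to the solid line at 1.

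Promoter sequences show what many of these genes have in common apart from their expression. RefSeq promoter windows (GRCm38.p6, 250 bases before to 50 after each gene's start) were matched for 29 of the 39 genes. The core of the ISRE was searched as GAAA, any 2 bases and GAAA again, on both strands, and overlapping matches were counted. It was found in windows of 13 of the 29 genes, or 44.8%, against 3.99% of all 27025 genes with a window, and in 19 of 35 other interferon-induced genes. A match is a description of letters, not evidence of binding. The following stretches come from the 6 genes with the lowest log2 ratios among those with a match and a mean of at least 10 TPM, and from Ifih1, the gene with a match and the highest log2 ratio. The first 5 are the 250 bases before the start, and for the last 2, whose matches lie after the start, 30 bases are shown. Capitals mark the matches, which read TTTC, 2 bases and TTTC where they lie on the opposite strand.
Ifit3 (chr19:34583279-34583528, + strand): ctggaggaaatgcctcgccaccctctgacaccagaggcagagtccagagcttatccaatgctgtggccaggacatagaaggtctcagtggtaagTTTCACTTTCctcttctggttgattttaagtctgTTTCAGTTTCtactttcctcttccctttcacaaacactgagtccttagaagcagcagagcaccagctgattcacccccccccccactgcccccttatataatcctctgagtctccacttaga
Rsad2 (chr12:26456453-26456702, - strand): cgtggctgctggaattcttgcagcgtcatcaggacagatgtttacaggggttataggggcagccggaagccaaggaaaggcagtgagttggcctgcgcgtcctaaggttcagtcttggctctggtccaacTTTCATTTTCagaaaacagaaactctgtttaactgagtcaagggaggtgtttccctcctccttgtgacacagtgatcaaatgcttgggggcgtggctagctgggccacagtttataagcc
Stat2 (chr10:128270248-128270497, + strand): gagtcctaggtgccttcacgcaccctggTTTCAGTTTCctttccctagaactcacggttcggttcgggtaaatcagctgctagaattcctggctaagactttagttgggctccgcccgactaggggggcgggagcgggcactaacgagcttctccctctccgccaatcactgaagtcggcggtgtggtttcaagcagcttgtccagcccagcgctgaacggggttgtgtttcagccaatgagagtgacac
Isg15 (chr4:156200819-156201068, - strand): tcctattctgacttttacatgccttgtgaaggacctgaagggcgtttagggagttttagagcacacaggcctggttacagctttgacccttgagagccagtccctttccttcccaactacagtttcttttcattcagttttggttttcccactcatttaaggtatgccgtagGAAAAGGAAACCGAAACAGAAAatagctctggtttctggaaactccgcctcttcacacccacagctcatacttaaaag
Ifit1 (chr19:34640639-34640888, + strand): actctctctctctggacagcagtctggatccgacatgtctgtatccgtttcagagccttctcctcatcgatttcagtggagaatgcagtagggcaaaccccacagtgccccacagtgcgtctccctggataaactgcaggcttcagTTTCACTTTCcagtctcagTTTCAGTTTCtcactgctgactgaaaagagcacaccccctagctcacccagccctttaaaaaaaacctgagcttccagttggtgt
Ifitm3 (chr7:141010715-141010744, - strand): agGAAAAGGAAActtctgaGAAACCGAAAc
Ifih1 (chr2:62646206-62646235, - strand): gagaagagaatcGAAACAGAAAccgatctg

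Ifit3 carries 2 separate matches that begin at bases -156 and -122 from the start, and Ifit1 carries 2 at -104 and -85. In Isg15 3 overlapping matches merge into 1 block between bases -78 and -57. The match of Stat2 lies far upstream, at -222, and those of Ifitm3 and Ifih1 begin after the start, at 3 and 33. Ifit3 at a log2 ratio of -1.21 and Ifih1 at 0.03 thus both carry the same core. The 13 genes with a match had a median log2 ratio of -0.50 and 12 were below 0. The 16 genes with a window but no match had a median of -0.26 and 12 were below 0. Oasl2, Irf7 and Oasl1 were among those without one, which says only that these letters are not in the window. The GAS element of the interferon gamma response, searched as TTC, any 3 bases and GAA, which is its own reverse complement, was found in 7 of 29 genes, or 24.1%, against 9.55% of all genes. Those 7 genes, Irf1 among them, had a median log2 ratio of -0.38, and the 22 without one had a median of -0.41. Among the other interferon-induced genes a GAS match was found in 2 of 35, or 5.71%, below the share of all genes. GAS matches partly overlapped ISRE matches in Bst2 and Ifitm3.

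**Figure D3:**
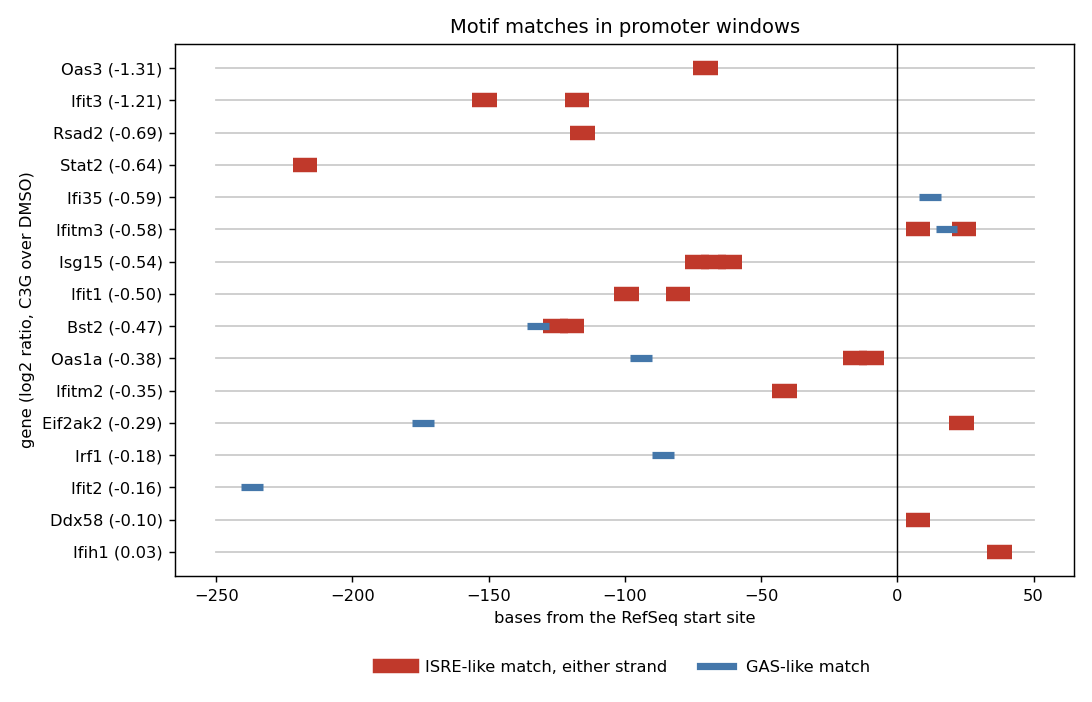
Positions of ISRE-like matches (thick, red) and GAS-like matches (thin, blue) in bases from the RefSeq start site, for genes of the 39 with at least 1 match, ordered by log2 ratio of C3G over DMSO. ISRE-like matches of the upper rows lie mostly before the start, and those of Ifitm3, Eif2ak2, Ddx58 and Ifih1 lie after it.

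The pathway around the 39 genes was described through lists of its other parts. Among 43 listed interferon-induced genes outside the 39, 42 were in the table. Of the 41 with a mean of at least 1 TPM, 34 lay below 0 and 7 above, against 41.1% of all genes below 0. Their median log2 ratio was -0.41, against 0.10 for all genes. None of the 40 that reached 5 TPM was higher by size, against 3.10% of all such genes. Lower by size were 4 of the 40, against 4.30% of all such genes. They were the GTPase gene Gm4951 at 15.9 TPM in the C3G tumor and 46.3 TPM in the DMSO tumor, the IFI200-family gene Ifi211 (9.79 TPM with C3G, 26.5 TPM with DMSO), Trim30d (7.26 TPM with C3G, 18.2 TPM with DMSO) and the proteasome activator subunit Psme1. Psme1 stood at 199 TPM with C3G and 410 TPM with DMSO, a ratio of 0.486 (0.462 to 0.512). Epsti1, at 29.8 TPM with C3G and 58.7 TPM with DMSO, and Mndal, at 20.7 TPM with C3G and 41.1 TPM with DMSO, lay just above -1. Members of the IFI200 and Trim30 families are alike in sequence and their reads may be shared.

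Genes for receptors and transducers lay, as a set, near the median of all genes. Of 10 such genes 3 lay below 0 and 7 above, against 41.1% of all genes below 0. Their median log2 ratio was 0.06, against 0.10 for all genes, and none was called by size. Ifnar1 and Ifnar2 encode the chains of the type I receptor and went opposite ways. Ifnar1 stood at 29.96 TPM in the C3G tumor and 20.6 TPM in the DMSO tumor, a ratio of 1.45 (1.31 to 1.62), while Ifnar2 stood at 40.6 TPM with C3G and 48.98 TPM with DMSO, a ratio of 0.828 (0.746 to 0.919). The receptor-bound kinase Tyk2 had a ratio of 1.39 (1.26 to 1.53), Jak2 of 1.19 (1.06 to 1.33) and Jak1 of 1.12 (1.06 to 1.19). After centring, the log2 ratios of Tyk2, Jak2 and Jak1 were 0.34, 0.12 and 0.05.

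Interferon genes themselves were almost unread. The 21 listed genes for type I, II and III interferons summed to 2 reads in the C3G library and 9 reads in the DMSO library, and 19 of them had no read with C3G and 18 none with DMSO. Of these reads, 6 in the DMSO library came from Ifng, which had none in the C3G library. A count of 0 is compatible with up to 3 reads, which for a gene of 1000 bases is 0.546 TPM in the C3G library and 0.692 TPM in the DMSO library, so the other 20 interferon genes, none above 2 reads in either library, were too low for a difference to be detectable at this depth. For Ifng the counting interval of the ratio ran from 0 to 0.670. Genes that lead to interferon production were mixed, with 7 of 15 below 0, against 41.1% of all genes. Their median log2 ratio was 0.14, against 0.10 for all genes. The IFI200-family gene Ifi204 stood at 14.3 TPM with C3G and 25.5 TPM with DMSO and the transcription factor Irf5 at 12.03 TPM with C3G and 19.4 TPM with DMSO. On the other side were the double-stranded RNA receptor Tlr3, at 36.8 TPM with C3G and 27.2 TPM with DMSO, and the kinases Ikbke and Tbk1, with ratios of 1.31 (1.07 to 1.60) and 1.21 (1.09 to 1.35). After centring, the log2 ratios of Tlr3, Ikbke and Tbk1 were 0.30, 0.20 and 0.15. Irf8, a factor of myeloid cells, had a ratio of 0.803 (0.679 to 0.950).

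Negative regulators were mixed too, with 4 of 9 below 0, against 41.1% of all genes. Their median log2 ratio was 0.04, against 0.10 for all genes. Tnfaip3, the NF-kB inhibitor A20, stood at 9.85 TPM in the C3G tumor and 5.84 TPM in the DMSO tumor, a ratio of 1.69 (1.41 to 2.02). Adar, the enzyme that edits double-stranded RNA and so hides it from MDA5, had a ratio of 1.30 (1.20 to 1.42), and Socs3, a feedback inhibitor of cytokine receptors, one of 1.20 (1.10 to 1.30). Rnaseh2b, a subunit of an enzyme that removes ribonucleotides from DNA, had a ratio of 1.18 (1.04 to 1.34). Below 1 were Ptpn2, a phosphatase of JAK and STAT proteins, at 0.794 (0.728 to 0.867) and Samhd1, which breaks down nucleotides, at 0.837 (0.794 to 0.881). After centring, the log2 ratios of Tnfaip3, Adar, Socs3 and Rnaseh2b were 0.55, 0.25, 0.13 and 0.11. Trex1, which degrades stray DNA, was listed at 0 in both libraries.

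**Figure D4:**
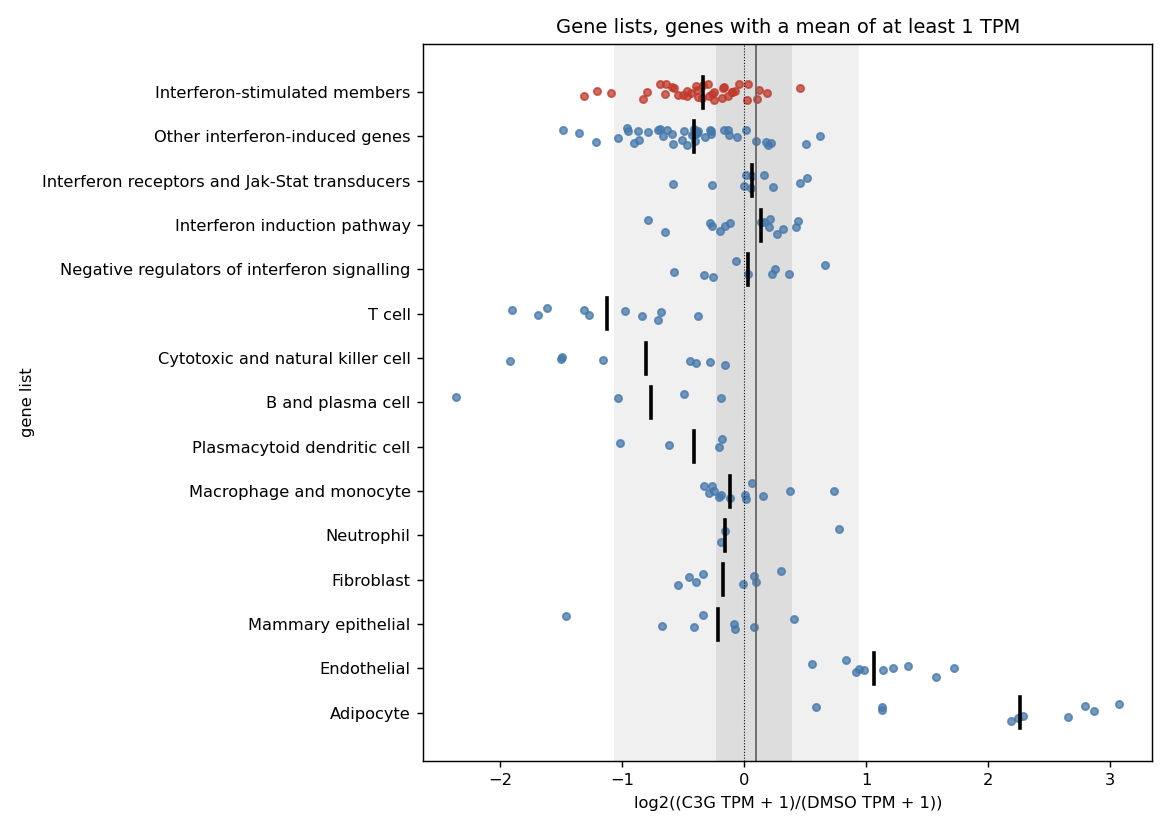
Log2 ratio of C3G over DMSO for the 39 interferon-stimulated genes (red) and for pathway and cell type lists (blue), genes with a mean of at least 1 TPM, with black bars for medians. The dark band holds the middle 50% of all 17468 genes and the light band the 5th to the 95th percentile, and the medians run from -1.12 for T cell genes to 2.27 for adipocyte genes.

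Markers of several cell types differed between the same libraries. Mammary epithelial genes, which check the labelled tissue, were abundant in both. Over 8 genes they summed to 5518 TPM in the C3G tumor and 7571 TPM in the DMSO tumor, a difference that lay mostly in keratin genes. Of the 8 genes 6 lay below 0, and the median log2 ratio of the list was -0.21. Krt19 was lower by size at 246 TPM with C3G and 678 TPM with DMSO. Krt5 and Elf5, with ratios of 1.34 (1.17 to 1.53) and 1.06 (1.02 to 1.09), lay above 0 (Elf5 at -0.04 after centring) and were named after their values were seen. A marker is called measured here if its mean was at least 1 TPM. All 10 measured T cell genes of 15 listed lay below 0, and the list summed to 31.0 TPM with C3G and 84.7 TPM with DMSO. Among those that reached 5 TPM, Cd2, Trbc2 and Trac had the largest log2 ratios, all lower by size. All 8 measured cytotoxic and natural killer cell genes of 11 lay below 0, with sums of 35.6 TPM with C3G and 88.7 TPM with DMSO, and Xcl1, Nkg7 and Ccl5 had the largest log2 ratios among those that reached 5 TPM. The 9 B and plasma cell genes summed to 60.1 TPM with C3G and 123 TPM with DMSO, mostly Igkc and Ighm, and all 4 measured genes lay below 0. In the B cell and cytotoxic lists some genes that were not measured, with few reads, lay above 0. Igkc stood at 12.0 TPM with C3G and 65.5 TPM with DMSO. Ighm differed far less, with a ratio of 0.873 and an interval of 0.763 to 1.001 that reaches 1.

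Plasmacytoid dendritic cells are a known source of type I interferon. Their 8 listed genes summed to 86.9 TPM in the C3G tumor and 149 TPM in the DMSO tumor, largely from Ly6d, which other cells also express. The more specific Siglech stood at 3.87 TPM with C3G and 6.48 TPM with DMSO, a ratio of 0.598 (0.434 to 0.821), while Cox6a2 had no read in the DMSO library. Macrophage and monocyte genes were closer to level, with 7 of 13 below 0 and sums of 1928 TPM with C3G and 2086 TPM with DMSO, Cd163 and Mertk on the higher side and C1qa on the lower. Neutrophil genes summed to 57.4 TPM with C3G and 35.9 TPM with DMSO, nearly all S100a8, while 2 of the 3 measured genes lay below 0. Ly6g and Retnlg were at 0 in both libraries and Cxcr2 was at 0 with C3G. Fibroblast genes summed to 1435 TPM with C3G and 1700.4 TPM with DMSO, with 5 of 8 below 0, 3 above 0 and none called by size. Col1a1, Pi16 and Col1a2 had the largest log2 ratios, all below 0, while Lum, at a ratio of 1.23 (1.14 to 1.34), lay above, named after its value was seen. All 10 endothelial genes lay above 0 (sums of 124 TPM with C3G and 54.1 TPM with DMSO, led by Cldn5, Tie1 and Pecam1), as did all 10 adipocyte genes (1375 TPM with C3G and 242 TPM with DMSO, led by Retn, Car3 and Fabp4). The part of these cell type differences in the levels of the interferon-stimulated genes was not tested.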

How the data were processed

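RNeasy Plus kits were used for RNA and the TruSeq kit, version 2, for libraries, which selects polyadenylated RNA and does not mark strand, per the labels' protocols. Trimmomatic 0.38, featureCounts 2.0.0, FastQC and MultiQC and the build mm10 are named in the submitters' processing notes. The aligner and the treatment of reads shared by genes are not given in the sources used here. The deposited values are TPM per gene, which the authors gave as 1 column per library.

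All 55536 identifiers matched GENCODE M21 (GRCm38, the same assembly as mm10). Multiplied by exon-union length, 100% of TPM values above 0 came out as whole multiples of 1 step (within 0.01 of a step), and 1 step was taken as 1 read. Exact conditional 95% intervals of ratios came from these reads and cover counting error only, since PCR copies were not marked by molecular identifiers. With 1 library per group no test was run. Log2 ratios used a pseudocount of 1 TPM, which understates the change of low genes. List medians used genes with a mean of at least 1 TPM. From each pathway list up to 6 genes, and from each cell type list up to 3, were named by the size of the log2 ratio among genes reaching 5 TPM. Ifit3b, the Oas1 genes given as a sum, interferon genes and markers at 0 are named outside that rule. Promoters were printed by match and log2 ratio. The 39 genes and all lists were chosen with earlier results of these data known. Calculations used Python 3.11.15 and scipy 1.17.1, and the procedure was tested on simulated data. The alternatives were other pseudocounts, filters on low values, centring, rescaling, removal of a length trend and leaving out gene families. Values of 2 single genes of the lists are not reported here.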

Additional observations from a re-analysis of the deposited data

How the results depend on the processing

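Under the 8 alternatives to the processing, the median log2 ratio of the 39 genes stayed below 0, between -0.46 and -0.28. The value of -0.46 came from centring, which by construction shifts every gene by -0.12. Centring moved the median by more than the median counting error of the single genes, and it moved 23 of the 39 single genes by more than their own. No counting error of the median itself was computed. The number of genes lower by size was 3, with 2 at a pseudocount of 5, where Oas3 was at -0.84, and 2 under the stricter filter, which required a higher level of 20 TPM. It was 1, Oas3, when 11 genes with close family members were left out, a set that holds Ifit3 and Oasl2. The count below 0 was 33 to 36 of the full list and 24 of 28 without those families. Dtx3l and Ifih1 changed sign under centring and with the length trend removed, at -0.09 each and at -0.04 and -0.08, and Ifitm1 under centring, at -0.01. Removing the length trend moved 8 of the 39 genes by more than their counting error, among them the short genes Isg15 (-0.28), Bst2 (-0.24), Ifitm3 (-0.29) and Ifitm2 (-0.06), each by over 1.5 times. The sum of Ifit3 and Ifit3b was added after the data were seen. For the 41 other interferon-induced genes the median ranged from -0.53 to -0.36. Among the genes named from the lists, Trim30d, Cd2, Trac, Ly6d and Tie1 fell short of the size threshold at a pseudocount of 5, Ly6d also with the length trend removed, while Epsti1 and Mndal passed it under centring and S100a8 with the length trend removed. No paired analysis was possible because each group has 1 library and no replicate number. Depth limits Ifitm1, the interferon genes and most lymphocyte markers, which rest on few reads.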
